A study of Mus musculus with 6 samples.

Results

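The tumor necrosis factor (TNF) superfamily, its receptors and the TNF receptor-associated factors (TRAFs) were examined in murine bone marrow-derived macrophages (BMDMs). Members were the protein-coding genes of the count table with symbols starting with *Tnfsf* or *Tnfrsf* and a digit, together with *Tnf*, *Lta*, *Ltb*, *Fas*, *Fasl*, *Cd40*, *Cd40lg*, *Cd27*, *Cd70* and *Traf1* to *Traf7*. This rule found 47 of 40481 genes, of which 17 encode ligands, 23 receptors and 7 TRAFs. *Ltbr* and *Relt*, which encode receptors of the family, and the read-through gene *Tnfsfm13* fall outside it by their symbols.

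RNA was sequenced from naïve BMDMs, with 3 samples of the *Scd2*-m/-m genotype and 3 of wild-type. *Scd2* encodes a stearoyl-CoA desaturase, an enzyme that makes monounsaturated fatty acids. *Scd2*-m/-m mice carry floxed *Scd2* alleles and the lysozyme M-Cre transgene, which is active in myelomonocytic cells, so other cells in the bone marrow keep the gene. The labels give the other group only as WT, and the sources used here do not say whether those mice carried Cre or floxed alleles. The study used male and female mice aged 2 to 5 months, with no sex or age for each library. Marrow was differentiated for 5 to 6 days in medium conditioned by CMG cells, and no stimulus is named for these samples. The labels do not say whether replicates came from separate mice, so p-values measure the spread between these samples only. The question was how loss of *Scd2* changed gene expression in macrophages at baseline.

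Ligands of the TNF superfamily are mostly membrane proteins that act as trimers, either on the cell surface or after being cut free. Receptors with a death domain can recruit adaptors and caspases, and many others bind TRAFs directly through a short motif. TRAF2 and TRAF3, together with the ubiquitin ligases cIAP1 and cIAP2, hold the kinase NIK at a low level and so restrain the noncanonical NFkB pathway. In the macrophage lineage the family is best known for TNF itself, a major secreted cytokine, and for RANK, the receptor through which precursors become osteoclasts.

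The libraries held 46285176 to 57629638 counts on genes each. *Scd2* itself was at 66.9, 77.7 and 62.7 CPM (counts scaled to library size with TMM factors) in the wild-type libraries and at 59.5, 37.9 and 39.8 CPM in the *Scd2*-m/-m libraries. The groups did not overlap, but the log2 fold change of −0.59 ± 0.19 (SE) had an adjusted p (FDR) of 0.10 by edgeR's quasi-likelihood test. Without *Scd2*-m/-m replicate 1, whose level was nearest to wild-type, it was −0.83 with an FDR of 8.87e-05. With any other library left out it was between −0.66 and −0.48 and not called, with FDRs of 0.137 to 0.277. Which exons the deletion removes was not used here, so reads outside them may still be counted.

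All 8 macrophage markers on the list, among them *Csf1r*, *Adgre1* and *Cd68*, were abundant in both groups. Of these, *Lyz2* (the lysozyme M gene), *Csf1r*, *Adgre1* and *Mertk* were lower and *Cd68* higher in *Scd2*-m/-m BMDMs, and the summed level of the list was 37447 to 38354 CPM in wild-type against 21438 to 21958 CPM in *Scd2*-m/-m libraries. Most of that difference was *Lyz2*, whose locus drives Cre in *Scd2*-m/-m mice and whose mean level was 22742 CPM in wild-type against 9025 CPM in *Scd2*-m/-m BMDMs. The other 7 macrophage markers summed to 15135 to 15356 CPM in wild-type against 12507 to 12908 CPM in *Scd2*-m/-m libraries. All 6 markers of dividing cells were higher, with a summed level of 35.5 to 42.7 CPM in wild-type against 118 to 123 CPM in *Scd2*-m/-m libraries. Of 8 neutrophil markers, 5 were higher, with summed levels of 10.9 to 11.6 and 25.4 to 33.1 CPM. These lists moved with genotype alongside every result below, and their part in the results was not tested. In bulk RNA, fewer cells of a type and less RNA per cell cannot be told apart.

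In *Scd2*-m/-m BMDMs, 4 ligand genes and an orphan receptor gene were higher, whereas the genes of 3 signaling receptors and of TRAF2 and TRAF3 were lower. The ligands were *Tnfsf8* (CD30 ligand), *Tnfsf12* (TWEAK), *Tnfsf13* (APRIL) and *Tnfsf13b* (BAFF), and the orphan receptor was *Tnfrsf26*. The receptors were *Tnfrsf1a* (TNFR1), *Tnfrsf11a* (RANK) and *Tnfrsf14* (HVEM). Apart from *Tnfsf8*, the log2 fold changes ran from −0.51 for *Traf2* to 0.77 for *Tnfsf13b*.

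Of the 47 members, 35 passed the filter on low counts and were tested, and 10 of the 35 were called at an FDR below 0.05 (28.6%), 5 higher and 5 lower. Among all 14778 genes tested, 17.5% were called, 9.65% higher and 7.84% lower. The members' median log2 fold change was 0.14, against 0.00 over all genes. The libraries of the groups did not overlap for 12 of the 35 members (34.3%), close to the 34.8% of all genes tested. *Tnfsf8* and *Tnfrsf17* passed the filter only through the *Scd2*-m/-m libraries. The 6 members *Traf2*, *Traf3*, *Tnfsf8*, *Tnfsf12*, *Tnfrsf14* and *Tnfrsf26* stayed called whichever library was left out. Without *Scd2*-m/-m replicate 2 those 6 alone were called, and without wild-type replicate 2 the count of lower members was 3.

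**Figure D1:**
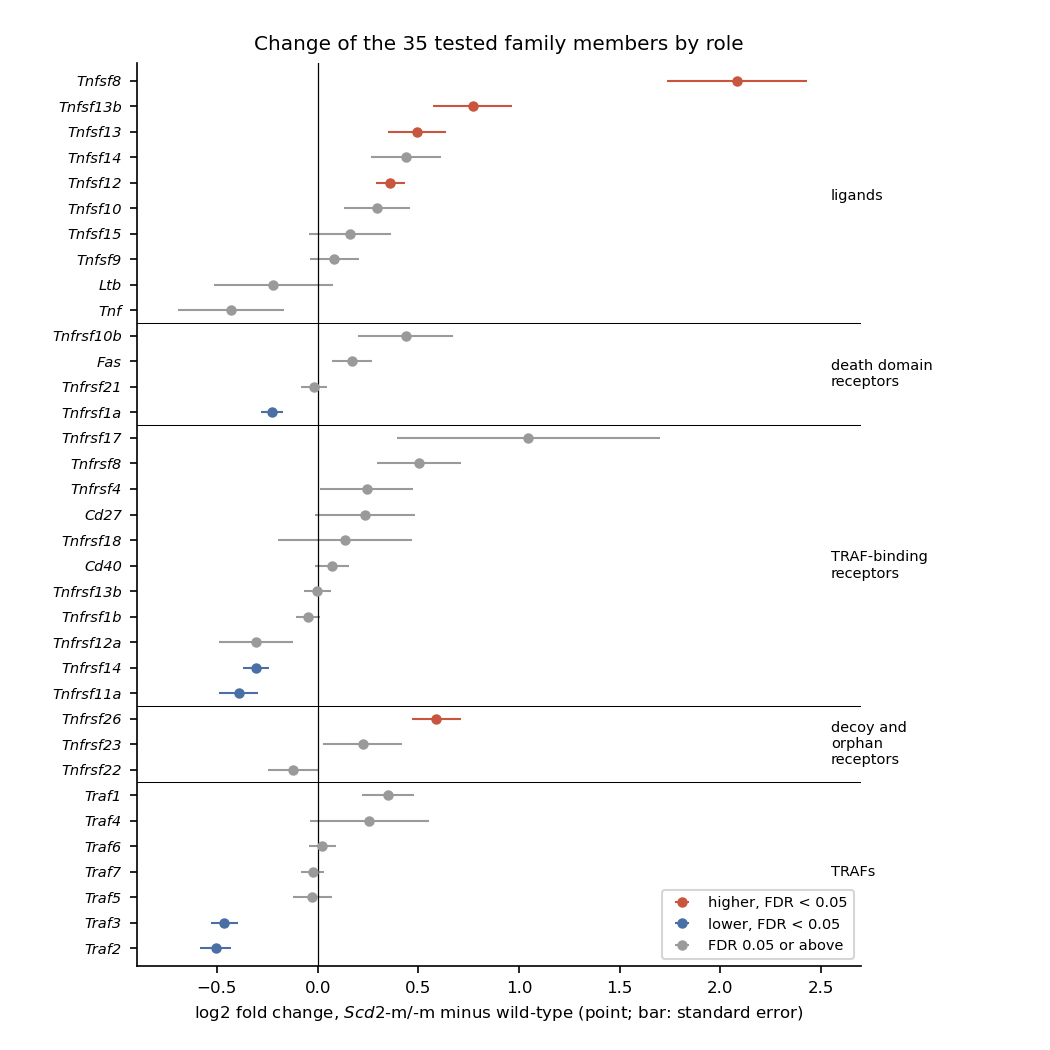
Log2 fold change of each tested member, *Scd2*-m/-m over wild-type, with its standard error, grouped by role, in red for higher, blue for lower and grey for not called. The called ligands all lie to the right of 0 and the called TRAFs to the left, with *Tnfsf8* farthest out at 2.08.

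Levels of different genes were compared as CPM per kilobase of exon, with length taken over all annotated exons of a gene. *Tnfrsf1b*, which encodes TNFR2, was the highest member with a mean of 210 over the 6 libraries. *Tnfrsf1a* followed at 70.7, *Tnfrsf14* at 62.5, *Tnfsf12* at 50.5 and *Tnfrsf11a* at 27.6. *Tnfrsf1b* held 39.5% of the summed per-length level of all members and these 5 genes 79.2%. Of these 5, 4 encode receptors and 1 a ligand. *Tnf* was at 12.8 on the same scale. Of the 47 members, 23 were above 1.

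**Figure D2:**
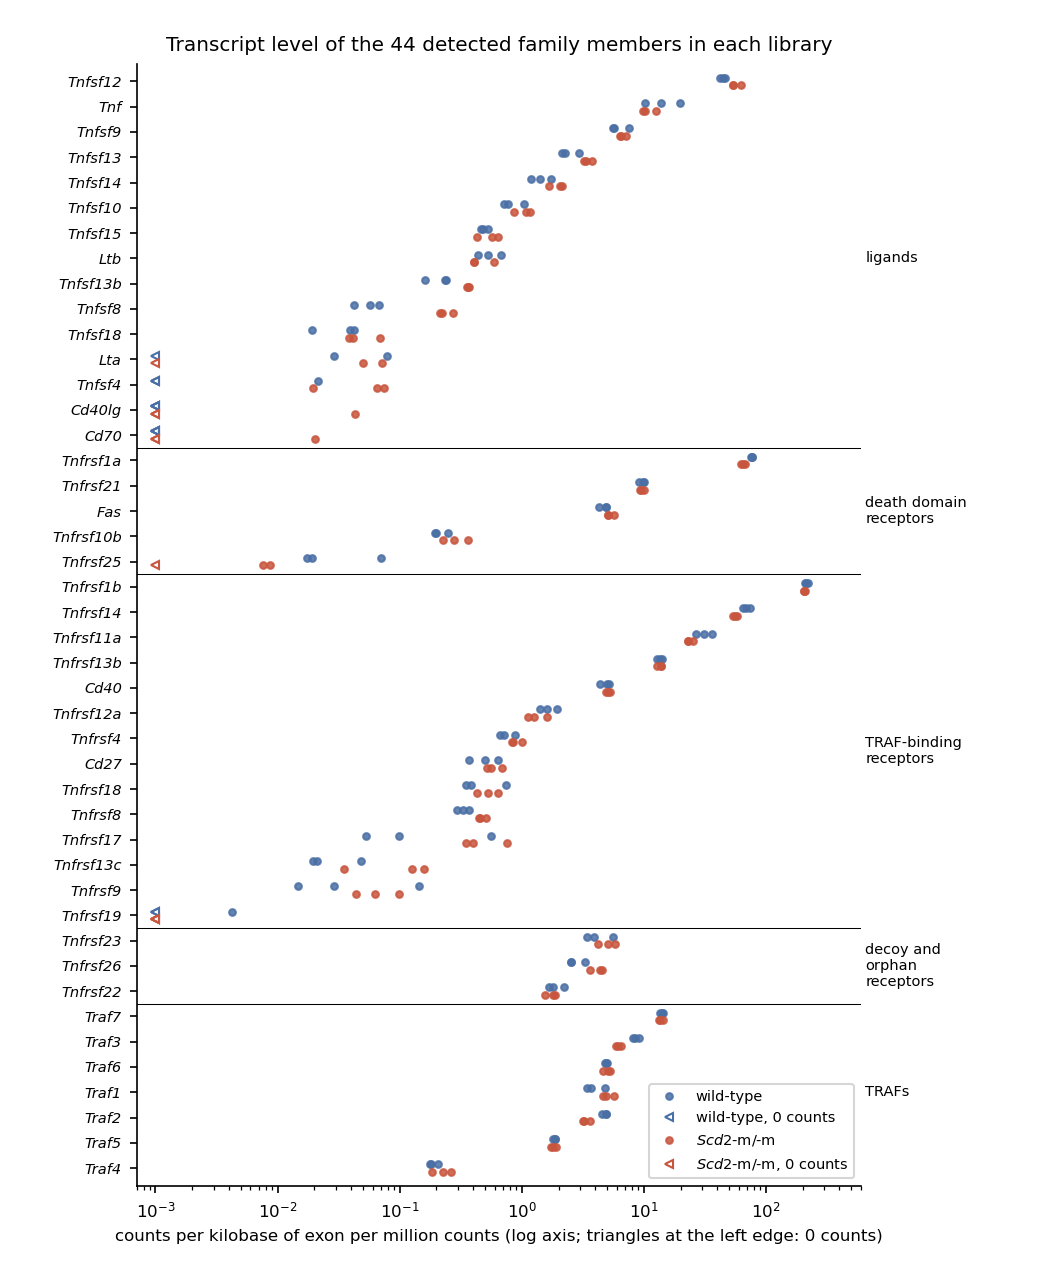
Level of the 44 detected members in each library, as CPM per kilobase of exon on a log axis, grouped by role, with triangles for libraries at 0 counts. *Tnfrsf1b* lies at the top of the scale near 210, and the libraries of both groups lie close together for most members above 1.

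*Traf3* and *Traf2* had the smallest FDRs of the family. *Traf3* (chr12:111166370-111267153, plus strand, GRCm38) was at 67.1, 62.3 and 59.5 CPM in wild-type and 47.9, 45.3 and 43.7 CPM in *Scd2*-m/-m libraries. No *Scd2*-m/-m library reached the lowest wild-type level, and the log2 fold change was −0.46 ± 0.07 (SE, FDR = 2.80e-04). *Traf2* (chr2:25517982-25546940, minus strand), whose product recruits the cIAPs to receptors, was at 24.8, 23.0 and 25.1 CPM in wild-type and 18.5, 16.6 and 16.3 CPM in *Scd2*-m/-m libraries. The groups were again separate, with a log2 fold change of −0.51 ± 0.08 (FDR = 4.80e-04).

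The other TRAF genes were not called. *Traf1*, whose product has no RING domain and pairs with TRAF2, was at 42.5, 32.4 and 30.4 CPM in wild-type and 50.4, 42.9 and 40.9 CPM in *Scd2*-m/-m libraries. Wild-type replicate 1 overlapped the *Scd2*-m/-m libraries, and the log2 fold change was 0.35 ± 0.13 (FDR = 0.10). Without wild-type replicate 1 it was 0.51 with an FDR of 0.00115. With any other library left out *Traf1* was not called. Its log2 fold change fell to 0.26 without wild-type replicate 3, and its FDR rose to 0.257 without wild-type replicate 2. *Traf6*, which serves Toll-like and IL-1 receptors as well as RANK and CD40, had a log2 fold change of 0.02 ± 0.07 (FDR = 0.849), which turned to −0.02 without *Scd2*-m/-m replicate 3 and −0.04 with voom quality weights. *Traf7* was at −0.02 ± 0.06 (FDR = 0.820). *Traf5* was at −0.03 ± 0.10 (FDR = 0.894) and at 0.01 without *Scd2*-m/-m replicate 2. *Traf4*, at under 1 CPM in every library, was at 0.26 ± 0.30 (FDR = 0.613).

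The 250 bases before the annotated start were read for the called members from RefSeq's promoter table (GRCm38.p6), which held 37 of the 47 members and 8 of the 10 called. A loose form of the site bound by NFkB dimers, GGG and CC separated by any 5 bases, was searched on both strands of these windows. It was in 6 of the 8 called members, in 25 of the 37 members (67.6%) and in 45.8% of all 32851 promoters. A match is a run of letters and was not tested as a binding site. The windows of *Traf3*, *Traf2* and *Tnfsf13b* are shown, 5′ to 3′ on the gene's strand, since they are those of called members that lie outside annotated exons. Capitals mark the match.
Traf3, chr12:111166120-111166369: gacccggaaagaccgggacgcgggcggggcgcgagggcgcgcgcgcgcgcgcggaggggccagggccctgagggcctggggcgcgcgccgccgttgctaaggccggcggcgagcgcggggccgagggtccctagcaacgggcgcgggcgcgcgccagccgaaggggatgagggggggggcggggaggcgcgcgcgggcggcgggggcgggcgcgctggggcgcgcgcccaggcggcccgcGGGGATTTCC
Traf2, chr2:25546941-25547190: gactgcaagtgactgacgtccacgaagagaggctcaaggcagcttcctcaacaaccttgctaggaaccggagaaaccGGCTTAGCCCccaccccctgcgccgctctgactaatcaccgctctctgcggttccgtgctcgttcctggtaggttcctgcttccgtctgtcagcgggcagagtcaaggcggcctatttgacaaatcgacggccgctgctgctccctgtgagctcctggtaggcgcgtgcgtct
Tnfsf13b, chr8:10006217-10006466: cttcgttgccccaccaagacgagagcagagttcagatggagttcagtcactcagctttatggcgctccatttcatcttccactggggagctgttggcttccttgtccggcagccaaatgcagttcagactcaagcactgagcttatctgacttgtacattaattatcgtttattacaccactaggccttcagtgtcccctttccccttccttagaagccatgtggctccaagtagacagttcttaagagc

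The match in *Traf3*, GGGGATTTCC, is on the gene's strand and fills the last 10 bases before the start. The match in *Traf2*, GGCTTAGCCC, is on the opposite strand and begins 173 bases before the start. The *Tnfsf13b* window held no match. The windows also differed in base composition, with a GC content of 85.2% and 49 CpG dinucleotides for *Traf3*, 60.8% and 19 for *Traf2*, and 48.8% and 5 for *Tnfsf13b*.

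*Tnfsf8* (chr4:63831308-63861347) had the largest fold change of the called members, from low counts. It had 8, 10 and 13 counts in the wild-type libraries against 47, 41 and 61 in the *Scd2*-m/-m libraries, or 0.211 ± 0.0475 CPM against 0.902 ± 0.128 CPM (SD, n = 3 each). The log2 fold change was 2.08 ± 0.35 (SE, FDR = 9.36e-04). The lowest coordinate of *Tnfsf15* (TL1A, chr4) lies 104 kb from that of *Tnfsf8*. *Tnfsf15* was at 1.65 ± 0.116 CPM in wild-type against 1.84 ± 0.356 CPM in *Scd2*-m/-m BMDMs. Its log2 fold change was 0.16 ± 0.20 (FDR = 0.651). CD30 ligand is known from activated T cells and other immune cells. The T cell markers *Cd3d*, *Cd3e*, *Cd3g*, *Cd8a* and *Cd8b1* were near 0 in both groups and not tested. None of the 3 tested markers on that list was called. In wild-type and *Scd2*-m/-m BMDMs, *Cd28* was at 102 and 114 CPM, *Cd4* at 35.8 and 35.7 CPM, and *Lck* at 0.694 and 0.561 CPM. The whole list summed to 115 to 162 CPM in wild-type against 143 to 164 CPM in *Scd2*-m/-m libraries. Of the 6 dendritic cell markers, *Ccr7* and *Flt3* were higher in *Scd2*-m/-m BMDMs, and both passed the filter only through the *Scd2*-m/-m libraries. The other 4 were not called, among them *Xcr1* with a log2 fold change of −0.61 (FDR = 0.311). The summed level of the 6 markers was 1.31 to 1.79 CPM in wild-type against 2.13 to 3.37 CPM in *Scd2*-m/-m libraries.

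*Tnfsf12* (chr11:69686250-69695849), whose product acts through the receptor Fn14, was at 67.7, 63.4 and 69.9 CPM in wild-type and 95.2, 81.0 and 81.9 CPM in *Scd2*-m/-m libraries. The groups did not overlap, and the log2 fold change was 0.36 ± 0.07 (FDR = 0.00343). *Tnfsf13* (chr11:69682846-69685784), whose lowest coordinate lies 3.40 kb from that of *Tnfsf12*, encodes a ligand that acts on B cells and plasma cells. It was at 3.69, 4.81 and 3.48 CPM in wild-type and 6.13, 5.25 and 5.47 CPM in *Scd2*-m/-m libraries, with a log2 fold change of 0.49 ± 0.15 (FDR = 0.0302). Its FDR was above 0.05 when any library other than wild-type replicate 2 was left out, up to 0.104 without wild-type replicate 3.

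The values of this locus are uncertain for each gene on its own. Of all 50-base stretches of *Tnfsf13* transcripts 57.3%, and of *Tnfsf12* transcripts 46.8%, also occur in *Tnfsfm13*, a read-through gene across both. *Tnfsfm13* was at 13.4 ± 0.610 CPM in wild-type against 16.3 ± 1.35 CPM in *Scd2*-m/-m BMDMs, with a log2 fold change of 0.28 ± 0.09 (FDR = 0.0381). Summed over the 3 genes, the locus was at 84.6, 81.1 and 87.4 CPM in wild-type and 119, 102 and 103 CPM in *Scd2*-m/-m libraries. The sum had a log2 fold change of 0.35 ± 0.07 (FDR = 0.00288). How shared reads were assigned was not given in the sources.

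*Tnfsf13b* (chr8:10006467-10039072, plus strand) encodes the survival factor of mature B cells, which myeloid cells are known to make. It was at 1.11, 1.65 and 1.61 CPM in wild-type and 2.53, 2.43 and 2.49 CPM in *Scd2*-m/-m libraries. The *Scd2*-m/-m libraries lay close together above all wild-type libraries, and the log2 fold change was 0.77 ± 0.20 (FDR = 0.0147). Without *Scd2*-m/-m replicate 2 the FDR was 0.0506.

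*Tnf* was not called. It was at 32.7, 22.6 and 16.8 CPM in the wild-type libraries and at 20.6, 16.7 and 16.1 CPM in the *Scd2*-m/-m libraries. The wild-type libraries spread widely and wild-type replicate 3 lay among the *Scd2*-m/-m libraries. The log2 fold change was −0.43 ± 0.26 (FDR = 0.349), and −0.64 with an FDR of 0.0289 without wild-type replicate 3. Without wild-type replicate 1, the highest library, it was −0.15 with an FDR of 0.522. Its neighbours on chr17 gave little, with *Ltb* at 31 to 50 counts per library and a log2 fold change of −0.22 ± 0.30 (FDR = 0.671), and *Lta* at 0 to 5 counts and not tested.

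The other tested ligands were not called. *Tnfsf14* (LIGHT), which binds HVEM, was at 2.20, 2.6 and 3.23 CPM in wild-type and 3.98, 3.10 and 3.80 CPM in *Scd2*-m/-m libraries, with a log2 fold change of 0.44 ± 0.17 (FDR = 0.104). *Tnfsf9* (4-1BB ligand) was at 0.08 ± 0.12 (FDR = 0.700) and *Tnfsf10* (TRAIL) at 0.29 ± 0.16 (FDR = 0.247). Over the 10 tested ligands, 4 were higher and none lower, against 9.65% and 7.84% of all genes tested. *Tnfsf8* is among the 4 and had passed the filter only through the *Scd2*-m/-m libraries. *Tnfsf12* and *Tnfsf13*, also among the 4, overlap the same read-through gene, so their calls may not be independent. *Tnfsf13* lost its call in 5 of the fits with a library left out.

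**Figure D3:**
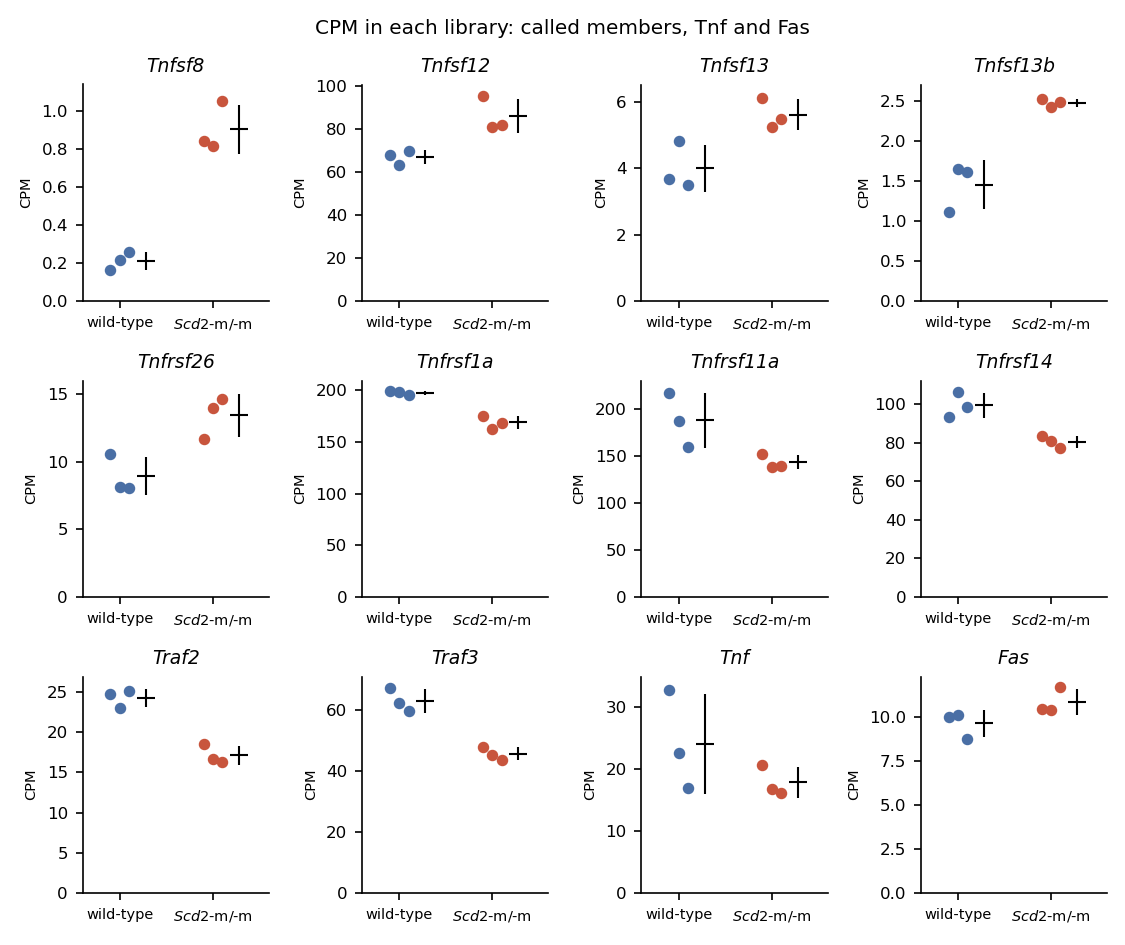
CPM of the 10 called members, *Tnf* and *Fas* in each library, with the mean and SD of each group beside the points and every axis from 0. The wild-type and *Scd2*-m/-m points are separate in each panel except that of *Tnf*, where wild-type replicate 3 lies at the level of the *Scd2*-m/-m libraries.

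Of the receptors for TNF, *Tnfrsf1a* was lower and *Tnfrsf1b* was not called. *Tnfrsf1a* (chr6:125349362-125362484, plus strand), which encodes the death domain receptor TNFR1, was at 199, 198 and 195 CPM in wild-type and 175, 163 and 169 CPM in *Scd2*-m/-m libraries. All *Scd2*-m/-m libraries were below all wild-type libraries, with a log2 fold change of −0.23 ± 0.06 (FDR = 0.0123). The FDR was 0.0680 without wild-type replicate 2 and 0.101 without *Scd2*-m/-m replicate 2. *Tnfrsf1b*, which encodes the TRAF-binding receptor TNFR2, was at 841, 791 and 814 CPM in wild-type and 789, 791 and 784 CPM in *Scd2*-m/-m libraries. Its log2 fold change was −0.05 ± 0.06 (FDR = 0.633). The difference between the changes of both receptors was not tested.

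Among the other death domain receptors, *Fas*, which triggers apoptosis when bound by Fas ligand, was at 10.0, 10.2 and 8.79 CPM in wild-type and 10.5, 10.4 and 11.7 CPM in *Scd2*-m/-m libraries. The groups did not overlap, which at 3 against 3 gives the smallest possible two-sided exact permutation p of 0.1, but the log2 fold change of 0.17 ± 0.10 was not called (FDR = 0.268). *Tnfrsf21* (DR6) was at 39.9 ± 1.89 CPM in wild-type against 39.3 ± 1.49 CPM in *Scd2*-m/-m BMDMs (SD, n = 3 each). *Tnfrsf10b*, the mouse TRAIL receptor with a death domain, had a log2 fold change of 0.44 ± 0.24 (FDR = 0.238).

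Of 11 tested TRAF-binding receptors, *Tnfrsf14* and *Tnfrsf11a* were lower and none was higher, a called share of 18.2% and close to the 17.5% of all genes. *Tnfrsf14* (chr4:154921933-154928563, minus strand), which binds LIGHT, was at 93.3, 106 and 98.2 CPM in wild-type and 83.3, 80.9 and 77.0 CPM in *Scd2*-m/-m libraries. The log2 fold change was −0.30 ± 0.06 (FDR = 0.00482), and the groups did not overlap. *Tnfrsf11a* (chr1:105780718-105847981, plus strand) was at 217, 187 and 159 CPM in wild-type and 152, 138 and 139 CPM in *Scd2*-m/-m libraries. Wild-type replicate 3 was near the highest *Scd2*-m/-m library, and the log2 fold change was −0.39 ± 0.10 (FDR = 0.0159). The FDR lay above 0.05 without wild-type replicate 2 (0.0577), *Scd2*-m/-m replicate 2 (0.0743) or *Scd2*-m/-m replicate 3 (0.112).

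The ligand and decoy receptor of RANK had no counts. *Tnfsf11*, which encodes RANK ligand, and *Tnfrsf11b*, which encodes its decoy receptor osteoprotegerin, had 0 counts in all 6 libraries, which allows a level of up to 0.00965 CPM over the 6 libraries, covering counting error only. Among 6 osteoclast markers, *Ctsk* was higher and *Mmp9* lower in *Scd2*-m/-m BMDMs, 3 others were not called and *Calcr* was at 0.

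The receptors for BAFF and APRIL gave no call in edgeR's fit of all libraries. *Tnfrsf13b* (TACI) was at 38.7, 36.2 and 39.8 CPM in wild-type and 39.1, 36.3 and 39.2 CPM in *Scd2*-m/-m libraries (FDR = 0.993). *Tnfrsf17* (BCMA), a receptor of plasma cells, had 4, 2 and 23 counts in wild-type against 16, 31 and 19 in *Scd2*-m/-m libraries. Its log2 fold change of 1.05 ± 0.66 (FDR = 0.313) moved widely with single libraries. It was 2.66 with an FDR of 0.0162 without wild-type replicate 3, and 0.68, 0.60 and 0.65 without wild-type replicate 1, wild-type replicate 2 and *Scd2*-m/-m replicate 2, with FDRs of 0.554, 0.615 and 0.666. *Tnfrsf13c* (BAFF receptor) had 2, 2 and 5 counts in wild-type against 4, 13 and 19 in *Scd2*-m/-m libraries and did not pass the filter. Without *Scd2*-m/-m replicate 1 it passed and was called higher, and with no filter on low counts it was tested but not called. Of 7 B cell markers, *Cd79a* and *Cd79b* were higher in *Scd2*-m/-m BMDMs, at 0.232 against 0.590 CPM and 2.50 against 5.01 CPM, *Ighm* and *Ms4a1* were not called, and *Pax5*, *Ebf1* and *Vpreb1* were too low to test. The summed level of the list was 54.2 to 120 CPM in wild-type against 83.3 to 116 CPM in *Scd2*-m/-m libraries. The part of such cells in the B cell receptor and ligand values was not tested.

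Other receptors, including those of the called ligands CD30L and TWEAK, did not pass the test. *Tnfrsf8* (CD30), the receptor for the *Tnfsf8* product, was at 1.27, 1.02 and 1.14 CPM in wild-type and 1.56, 1.75 and 1.56 CPM in *Scd2*-m/-m libraries, which did not overlap, with a log2 fold change of 0.50 ± 0.21 (FDR = 0.119). *Tnfrsf12a* (Fn14), the receptor for TWEAK, was at −0.30 ± 0.18 (FDR = 0.290). *Cd40*, through which T cells activate macrophages, was at 0.07 ± 0.08 (FDR = 0.623). *Cd27*, whose lowest coordinate lies 117 kb from that of *Tnfrsf1a*, was at 0.23 ± 0.25 (FDR = 0.572). *Tnfrsf4* (OX40) and *Tnfrsf18* (GITR) were also not called.

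*Tnfrsf26*, *Tnfrsf22* and *Tnfrsf23* form a cluster on chr7. *Tnfrsf22* and *Tnfrsf23* encode decoy receptors for TRAIL, and *Tnfrsf26* an orphan receptor. *Tnfrsf26* (chr7:143607659-143628722) was at 10.6, 8.15 and 8.10 CPM in wild-type and 11.7, 14.0 and 14.7 CPM in *Scd2*-m/-m libraries. The groups did not overlap, although wild-type replicate 1 came close, and the log2 fold change was 0.59 ± 0.12 (FDR = 0.00414). *Tnfrsf22* was at 9.34, 7.0 and 7.59 CPM in wild-type and 7.58, 7.87 and 6.59 CPM in *Scd2*-m/-m libraries. Its log2 fold change was −0.12 ± 0.13 (FDR = 0.565) and turned to 0.01 without wild-type replicate 1 and 0.02 with voom quality weights. *Tnfrsf23* was at 0.22 ± 0.19 (FDR = 0.50), and at 0.45 with an FDR of 0.0197 without wild-type replicate 1. It was at 0.34 without *Scd2*-m/-m replicate 3, and at 0.08 and 0.11 without wild-type replicate 3 and *Scd2*-m/-m replicate 1, with FDRs of 0.397, 0.80 and 0.791. *Tnfrsf22* and *Tnfrsf23* share 17.3% and 18.0% of their 50-base stretches with each other, so their separate values are uncertain. Their summed counts had a log2 fold change of 0.12 ± 0.16 (FDR = 0.673). With other genes included, 27.4% of *Tnfrsf22* stretches were shared, so this sum does not cover all shared stretches.

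The 12 members that were not tested had few or no counts. Besides those already given, *Tnfrsf9* (4-1BB) had 2, 18 and 4 counts in wild-type against 15, 6 and 10 in *Scd2*-m/-m libraries. *Tnfsf4* (OX40 ligand) had 0, 0 and 2 against 2, 6 and 8 counts, *Tnfsf18* (GITR ligand) 4, 4 and 2 against 8, 4 and 5 counts, and *Tnfrsf25* (DR3) 8, 2 and 2 against 0, 1 and 1 counts. *Cd40lg* had 3 counts in *Scd2*-m/-m replicate 1, *Cd70* 1 count in *Scd2*-m/-m replicate 3 and *Tnfrsf19* 1 count in wild-type replicate 1, with 0 elsewhere. *Fasl* had 0 counts in all 6 libraries, with the same upper limit as *Tnfsf11*.

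Genes that act downstream of these receptors were read from a list of 59, of which 58 were tested. The list holds receptor adaptors and kinases, ubiquitin enzymes, kinases leading to NFkB and MAPK, the NFkB and IkB genes, and the proteases that release ligands. In *Scd2*-m/-m BMDMs 14 of 58 were called (24.1%, against 17.5% of all genes), 3 higher and 11 lower, and the median log2 fold change was −0.08. When only the 11883 genes with at least 1 CPM in 3 libraries were tested, 21.1% of them were called, and 15 of the list. The lower genes were led by the NFkB and IkB group, of which 6 of 10 were lower and none was higher. Of all genes 7.84% were lower, and 9.4% of those with at least 1 CPM in 3 libraries. All 10 genes of the group had a negative log2 fold change and the median was −0.36. The lists were chosen with earlier results of these data known, so these shares are a description only.

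*Nfkbiz*, which encodes the nuclear IkB protein IkBζ, was at 110, 125 and 102 CPM in wild-type and 62.5, 53.9 and 61.1 CPM in *Scd2*-m/-m libraries, with a log2 fold change of −0.92 ± 0.08 (FDR = 4.25e-06). *Nfkb1*, the gene of p105 and p50, was at 222 ± 7.86 against 171 ± 2.03 CPM and a log2 fold change of −0.38 ± 0.06 (FDR = 3.86e-04). *Relb* and *Nfkb2*, which encode the dimer of the noncanonical pathway, were at −0.38 ± 0.06 (FDR = 5.86e-04) and −0.38 ± 0.06 (FDR = 8.05e-04). *Rela* and *Rel* were at −0.14 and were not called (FDR = 0.146 and 0.176). The inhibitor genes *Nfkbia* and *Nfkbie* were at −0.37 and −0.34 (FDR = 0.00234 and 0.00340). 

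In the complex that TRAF2 and TRAF3 form, *Birc3* (cIAP2) was lower at −0.32 ± 0.06 (FDR = 0.00201), whereas *Birc2* (cIAP1) was at −0.03 ± 0.08 (FDR = 0.848). *Map3k14*, which encodes NIK, was at 35.4, 31.8 and 31.2 CPM in wild-type and 28.7, 26.3 and 26.8 CPM in *Scd2*-m/-m libraries, with a log2 fold change of −0.27 ± 0.07 (FDR = 0.0197). *Tnfaip3* (A20), a deubiquitinase that limits TNF signaling, and *Tab1* were lower by smaller amounts, at −0.20 (FDR = 0.0316) and −0.23 (FDR = 0.0435). *Map3k5*, the kinase ASK1 that TRAF2 activates, was at −0.41 ± 0.07 (FDR = 9.85e-04).

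The 3 higher genes belonged to the group of receptor adaptors and kinases. *Ripk3*, the kinase of necroptosis, was at 8.74, 7.89 and 8.91 CPM in wild-type and 19.6, 15.6 and 14.9 CPM in *Scd2*-m/-m libraries, with a log2 fold change of 0.97 ± 0.11 (FDR = 4.52e-05). *Mlkl*, its substrate that breaches the membrane, was at 0.36 ± 0.08 (FDR = 0.00433), and *Tank*, a TRAF-binding adaptor, at 0.29 ± 0.07 (FDR = 0.0105). *Tradd*, *Fadd*, *Ripk1*, *Casp8* and *Cflar* were not called. None of the 7 tested genes for shedding and cleavage of ligands was called, with *Adam17*, which frees TNF from the membrane, at −0.06 (FDR = 0.658). *Ltbr*, the lymphotoxin beta receptor outside the symbol rule, was at 99.3 ± 1.93 CPM in wild-type against 86.7 ± 5.60 CPM in *Scd2*-m/-m BMDMs (log2 fold change of −0.20 ± 0.06, FDR = 0.0431).

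**Figure D4:**
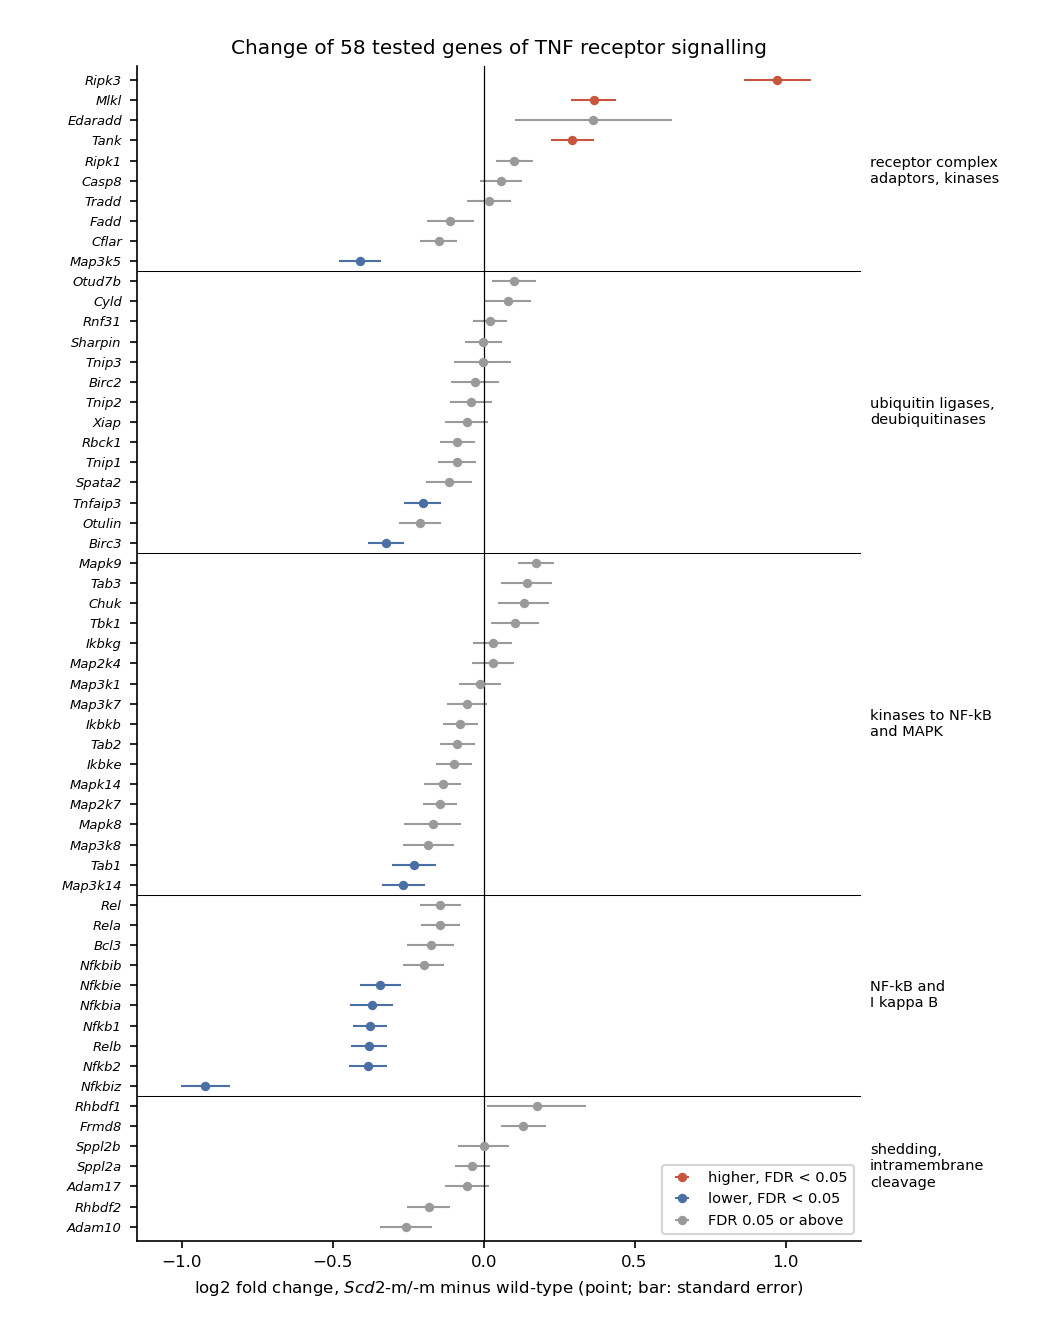
Log2 fold change of the tested genes of the TNF signaling list, *Scd2*-m/-m over wild-type, with standard errors, grouped by function and coloured by call (red higher, blue lower, grey not called). The NFkB and IkB genes all lie left of 0, with *Nfkbiz* lowest at −0.92, and *Ripk3* lies farthest to the right at 0.97.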

How the data were processed

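Poly(A)-selected RNA from 3 wild-type and 3 *Scd2*-m/-m BMDM samples was sequenced, and the labels mapped all 6 to a genotype. The authors used STAR for alignment to the mouse assembly of Ensembl release 76 (GRCm38), and the deposited table holds raw, unnormalized counts of reads by gene. How reads were counted, with which tool and whether by strand, was not given in the sources. The authors' own comparison table (fold changes and p-values from edgeR and limma) was not used. Of 40757 entries, 276 repeats were removed. Of counts of 1 to 20, 60.9% to 64.9% were even, so fold changes were also fitted with counts halved. Coordinates and exon lengths came from GENCODE (GRCm38).

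Counts were fitted in edgeR 4.0.16 (R 4.3.3) with filterByExpr, TMM factors, robust glmQLFit and glmQLFTest, and p-values were adjusted by Benjamini-Hochberg over all 14778 genes. In simulated counts for this comparison, 66% of genes changed by a log2 fold of 0.5 were called, 80% at 1 and 98% at 2. The simulation changed only 200 genes and gave genes of equal level the same spread. These shares may therefore not hold for the real libraries. Alternatives used DESeq2 1.42.0, limma-voom (limma 3.58.1), other factors, filters and thresholds, the replicate number as a block, and each library left out. Sums over overlapping genes were added after seeing the data.

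Members and lists were chosen with earlier results of these data known. Named were all called members, *Tnf*, *Fas*, *Fasl*, *Tnfrsf1a*, *Tnfrsf1b*, the TRAFs, the 5 highest per length, uncalled members with an absolute log2 fold change above 1, cluster neighbours of called members, untested members, and up to 5 called genes per direction of the signaling list. Further members, signaling genes and *Ltbr* were named after their values were seen. A further B cell marker was left out of its list and is not reported here.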

Additional observations from a re-analysis of the deposited data

How the results depend on the processing

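With all 6 libraries, every called member kept its direction and an FDR below 0.05 under each other fit and filter in which it was tested, except *Tnfsf13* with quality weights (FDR = 0.0563). *Tnfsf8* was not tested under the 2 stricter filters. RLE and upper-quartile factors kept all 10 calls. Limma-voom with quality weights called 4507 genes, 16 members (9 higher) and 26 of the signaling list. At an FDR below 0.01, 1331 genes and 6 members (3 higher, 3 lower) were called. At an FDR below 0.05 with an absolute log2 fold change above 1, 420 genes and 1 member (1 higher, 0 lower) were called, and 0 of the signaling list. Leaving out each library gave 1440 to 2567 genes, 6 to 12 members (3 to 6 higher, 3 to 6 lower) and 11 to 19 genes of the signaling list. *Scd2* was at −0.62 (FDR = 0.0105) with limma-voom, −0.82 (9.75e-05) with quality weights and −0.59 (0.0138) without robust estimation. In the other 8 fits and filters it was not called, with an FDR up to 0.247 with no filter on low counts. With a library left out *Scd2* was at −0.83 to −0.48. It was called only without *Scd2*-m/-m replicate 1, and its FDR reached 0.277 without *Scd2*-m/-m replicate 3. With quality weights *Traf6* turned to −0.0436 and *Tnfrsf22* to 0.0219. With a library left out *Traf6* ranged from −0.0157 to 0.0736, *Tnfrsf22* from −0.206 to 0.0073 and *Traf5* from −0.0618 to 0.0108. None of these was called. The cause was not tested. Same-numbered replicates correlated at 0.104, −0.0544 and 0.0832 in their deviations from group means. Replicates 1 and 3 correlated best with their own number, and replicate 2 did not. With so few samples per group, such correlations cannot decide whether the numbers pair the samples. With the replicate number as a block 2974 genes and 12 members were called, adding *Tnf* (−0.39, FDR = 0.0141) and *Traf1* (0.36, FDR = 0.00160). Members under 1 CPM rest on few counts.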
